A study of Homo sapiens with 6 samples.

Results

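The plasminogen activator system is represented here by 4 genes. They are PLAU and PLAT, which encode the urokinase-type and tissue-type plasminogen activators, PLAUR, which encodes the cell-surface receptor of urokinase, and SERPINE2, which encodes the inhibitor protease nexin-1. They were taken by symbol from a table of 20014 genes, and each symbol matched 1 Ensembl identifier. Expression was measured by RNA sequencing in HaCaT cells, an immortalized human keratinocyte line, in 3 libraries from STUB1 knockout (KO) cells and 3 libraries from control cells labelled WT. STUB1, also called CHIP, is a ubiquitin ligase that binds chaperones of the HSP70 and HSP90 families. Per the labels, both groups were made with the same lentiviral lentiCRISPR v2 vector, carrying a guide against STUB1 or a control guide, in medium with serum and with no special treatment; the cells were sorted into plates and the colonies were screened by immunoblot for STUB1. Nothing in the labels ties a library to its own clone or culture. The p-values therefore reflect library-to-library spread alone, and that spread may be technical. Where libraries of a group share a clone, differences between clones and those from STUB1 loss cannot be told apart.

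Plasminogen activators are secreted serine proteases that cut plasminogen into plasmin, which degrades fibrin and matrix proteins and activates other proteases and growth factors. Urokinase acts mainly at the cell surface, where its receptor, a protein held by a lipid anchor, concentrates it, whereas the tissue-type activator is best known for fibrin-dependent clot lysis. Serpins such as PAI-2 (SERPINB2) and protease nexin-1 block the activators, and complexes of activator and serpin are cleared by the endocytic receptor LRP1. In skin, urokinase and its receptor are known from keratinocytes that migrate at wound edges.

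The promoters of PLAU, the member with the largest change in these data, of PLAUR, its receptor gene, and of SERPINB2, the inhibitor gene that was lower together with PLAU, are shown for their sequence context. Each window is RefSeq sequence on GRCh38.p14, from 250 bases before to 50 bases after an annotated start, written 5′ to 3′ on the gene's strand. Capitals mark matches, on either strand, to the AP-1 motif TGANTCA, the GC box GGGCGG and the TATA motif TATAAA. The windows are chr10:73910882-73911181 on the plus strand for PLAU, where the start at 73911132 was the downstream one of those listed, chr19:43670120-43670419 on the minus strand for PLAUR, and chr18:63887455-63887754 on the plus strand for SERPINB2.
PLAU: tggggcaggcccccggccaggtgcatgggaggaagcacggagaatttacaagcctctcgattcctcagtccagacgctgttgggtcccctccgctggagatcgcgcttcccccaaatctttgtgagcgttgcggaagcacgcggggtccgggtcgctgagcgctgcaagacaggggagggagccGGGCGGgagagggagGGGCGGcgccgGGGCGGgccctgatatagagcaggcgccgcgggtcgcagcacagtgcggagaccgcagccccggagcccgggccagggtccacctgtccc
PLAUR: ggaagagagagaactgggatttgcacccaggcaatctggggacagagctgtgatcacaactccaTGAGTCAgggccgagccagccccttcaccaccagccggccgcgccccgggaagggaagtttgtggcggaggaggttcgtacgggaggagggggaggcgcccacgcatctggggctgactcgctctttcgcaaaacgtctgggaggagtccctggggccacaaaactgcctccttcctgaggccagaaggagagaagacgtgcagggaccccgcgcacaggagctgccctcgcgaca
SERPINB2: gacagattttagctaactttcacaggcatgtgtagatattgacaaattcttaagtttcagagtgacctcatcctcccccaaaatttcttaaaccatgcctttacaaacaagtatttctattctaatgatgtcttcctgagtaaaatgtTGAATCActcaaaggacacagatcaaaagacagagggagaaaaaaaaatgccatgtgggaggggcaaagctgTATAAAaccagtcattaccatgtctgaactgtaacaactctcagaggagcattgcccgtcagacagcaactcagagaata
The PLAU window held 3 GC boxes, which began 66, 51 and 40 bases before the start, and no AP-1 or TATA match. PLAUR had 1 AP-1 match, TGAGTCA, 186 bases before its start. SERPINB2 had 1 AP-1 match, TGAATCA, 102 bases before its start and a TATA match 30 bases before it. Of 35116 promoter windows of this length, 45.0% held a GC box, 7.71% an AP-1 match and 11.5% a TATA match. These matches are descriptions of the letters and not evidence of binding. PLAU and SERPINB2, whose mRNAs were both lower in KO cells, shared none of these motifs in their windows.

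STUB1 mRNA, the check on the labels, was 21.6, 24.7 and 23.2 FPKM in the KO libraries, against 37.8, 41.9 and 52.7 FPKM in the control libraries. FPKM is the number of fragments scaled to transcript length and library total. The groups did not overlap, and STUB1 stood at 52.5% of the control mean (log2 fold change -0.89, SE 0.116; limma, Benjamini-Hochberg adjusted p = 0.00125). JMJD8, whose annotated span on chromosome 16 overlaps that of STUB1, also fell, to 72.5% of control (log2 fold change -0.44, adjusted p = 0.0142 in the same test). What part reads of the shared span have in either value was not tested. Keratinocyte identity was seen in both groups: of 12 keratinocyte markers, 10 reached 1 FPKM, among them KRT5 and TP63, and their summed level was 1165 to 1261 FPKM in KO and 1028 to 1108 FPKM in control libraries. The groups were not alike in all of them: of 10 tested, 2 rose, 1 fell and 7 did not pass. That is 30.0% called beside 22.9% of all tested genes. KRT5 stood at 177% of control, COL17A1 at 163% and PERP at 70.6% (limma, Benjamini-Hochberg adjusted p = 0.000267, 0.00479 and 0.00946). What part these changes have in other differences was not tested. KRT14 and KRT17, which have near-identical copies in the genome, stayed under 1 FPKM in all 6 libraries. Most markers of other cell types stayed under 1 FPKM: none of 10 fibroblast markers reached 1 FPKM (summed 0.447 to 0.562 in KO, 0.456 to 0.546 in control), nor did PECAM1, VWF and KDR of endothelium, TYR and SOX10 of melanocytes or PTPRC of leukocytes. CDH5 (1 of 8 endothelial markers), PMEL and MITF (2 of 7 melanocyte markers) and CD68 and LAPTM5 (2 of 8 leukocyte markers) did reach it. LAPTM5 fell to 1.19 ± 0.0563 FPKM in KO, against 3.01 ± 0.186 FPKM in control (SD, n = 3 each; log2 fold change -0.87; limma, Benjamini-Hochberg adjusted p = 0.000108), and what part this has in other differences was not tested. The summed endothelial list was 1.91 to 2.10 FPKM in KO and 2.09 to 3.14 in control, the melanocyte list 6.48 to 7.66 and 6.77 to 7.41, and the leukocyte list 24.2 to 26.8 and 24.6 to 26.0. Among all 6 libraries control 3 stood apart, with Pearson's r across genes of 0.988 and 0.986 to the other control libraries, against 0.996 to 0.999 within the KO group and 0.998 between controls 1 and 2. The table does not give the depth of the libraries, which is unknown here.

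The gene for urokinase was lower and the gene for the tissue-type activator was higher in STUB1 KO cells, while the receptor and protease nexin-1 genes did not pass the test. Between the groups, PLAU and PLAT exchanged places: PLAT was the more abundant activator mRNA in every KO library and PLAU in every control library. Of the 4 members, 1 rose, 1 fell and 2 did not pass. All 4 passed the filter of a mean of at least 1 FPKM over the 6 libraries. Among the 11262 genes tested, 22.9% passed an adjusted p of 0.05, 9.58% as higher and 13.3% as lower, so calls were common in this comparison. The groups did not overlap for 2 of the 4 members and for 45.6% of all tested genes, where KO was higher in 20.4% (PLAT among them) and lower in 25.3% (PLAU among them).

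PLAU measured 59.0, 59.3 and 60.7 FPKM in the KO libraries, against 91.7, 97.9 and 102.6 FPKM in the control libraries. Every KO library was below every control library, and the KO values lay closer together than the control values. The means were 59.7 ± 0.884 FPKM in KO and 97.4 ± 5.48 FPKM in control (SD, n = 3 each), so PLAU fell to 61.3% of control. In RNA from whole cultures, fewer cells expressing a gene and less of its RNA per cell cannot be told apart. On the log2(FPKM + 1) scale the change was -0.70 (SE 0.0715, 95% interval -0.86 to -0.53; limma, Benjamini-Hochberg adjusted p = 0.000427). That was the 105th lowest value among the 11262 tested genes. By level, PLAU ranked 981st in KO and 549th in control among those genes. A two-sided exact permutation test of the FPKM values reached p = 0.1, and 3 against 3 libraries cannot go lower. This test, here and for the other members, took the libraries as unpaired. PLAU (ENSG00000122861) lies on chromosome 10 at 73909177 to 73917497 (GRCh38, GENCODE 29, plus strand). It shares 916 of its 2950 exonic bases with C10orf55 on the opposite strand, and since no strand setting is stated, reads of that stretch cannot be assigned to either gene.

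PLAT measured 91.1, 94.0 and 88.1 FPKM in the KO libraries, against 62.2, 71.9 and 66.1 FPKM in the control libraries. All KO values were above all control values. The means were 91.1 ± 2.92 FPKM in KO and 66.8 ± 4.86 FPKM in control (SD, n = 3 each), a rise to 136% of control. The log2 fold change was 0.44 (SE 0.0772, 95% interval 0.27 to 0.62; limma, Benjamini-Hochberg adjusted p = 0.00436), with an exact two-sided permutation p = 0.1. PLAT, on chromosome 8 at 42175233 to 42207724 (minus strand), ranked 561st by level in KO and 894th in control. No other annotated gene overlapped it.

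PLAUR measured 6.46, 6.71 and 6.27 FPKM in the KO libraries, against 5.44, 5.98 and 6.93 FPKM in the control libraries. Control 3 was the highest of all 6 and control 1 the lowest, so the KO values fell inside the control range. The means were 6.48 ± 0.219 FPKM in KO and 6.12 ± 0.753 FPKM in control (SD, n = 3 each; exact two-sided permutation p = 0.5). The log2 fold change was 0.08, with a 95% interval of -0.12 to 0.28 (limma, Benjamini-Hochberg adjusted p = 0.560). Without control 3 it was 0.16 (adjusted p = 0.0911), and with library weights it passed, at 0.14 (adjusted p = 0.0431). PLAUR lies on chromosome 19 at 43646095 to 43670547 on the minus strand.

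SERPINE2 measured 8.76, 8.66 and 8.96 FPKM in the KO libraries, against 8.37, 7.80 and 9.68 FPKM in the control libraries. Here too the KO values lay inside the control range, with control 3 highest and control 2 lowest. The means were 8.79 ± 0.155 FPKM in KO and 8.62 ± 0.959 FPKM in control (SD, n = 3 each; exact two-sided permutation p = 0.8). The log2 fold change was 0.03, with a 95% interval of -0.16 to 0.22 (limma, Benjamini-Hochberg adjusted p = 0.818), and it turned to -0.01 when each library was rescaled to an equal sum. SERPINE2 lies on chromosome 2 at 223975112 to 224039319 on the minus strand.

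**Figure D1:**
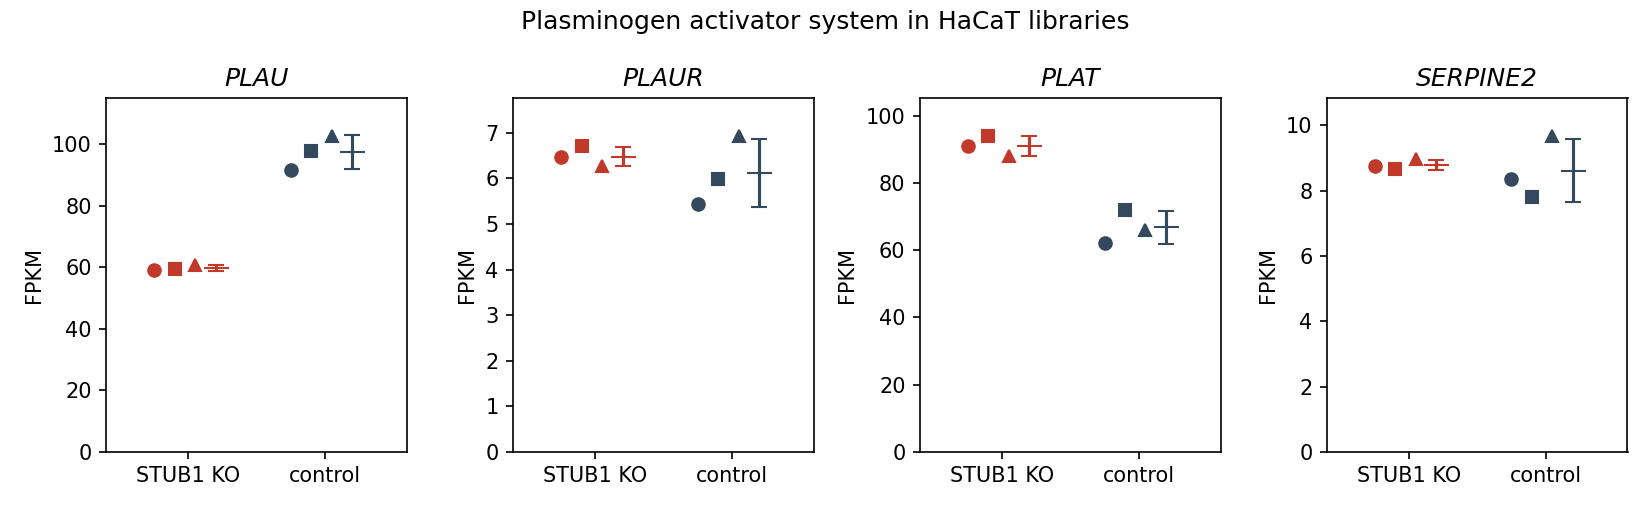
FPKM of PLAU, PLAUR, PLAT and SERPINE2 (vertical axes, linear, from 0) in the 3 STUB1 KO libraries (red) and the 3 control libraries (dark); circles, squares and triangles are libraries 1, 2 and 3, and bars beside them are the mean and SD. PLAU lies at 59.0 to 60.7 in KO, below every control library, and PLAT at 88.1 to 94.0 in KO, above every control library, while for PLAUR and SERPINE2 the KO values lie inside the control range.

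The ratio of both activators within a library does not depend on how libraries are scaled to each other. PLAT over PLAU was 1.54, 1.58 and 1.45 in the KO libraries, against 0.679, 0.735 and 0.644 in the control libraries, so the ratio was above 1 in every KO library and below 1 in every control library. The mean ratio was 2.23-fold higher in KO. If the same gene lengths served all libraries, that fold does not depend on them, whereas the side of 1 does. The summed level of PLAU and PLAT was closer between the groups, at 151 ± 2.33 FPKM in KO and 164 ± 8.86 FPKM in control (SD, n = 3 each). The KO sums were 149 to 153 FPKM and the control sums 154 to 170 FPKM. PLAU over PLAUR, the urokinase mRNA per receptor mRNA on the FPKM scale, was 9.22 ± 0.421 in KO and 16.0 ± 1.07 in control (SD, n = 3 each), and these groups did not overlap either. The ratios are given as descriptions, with no test.

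In order of FPKM level, KO libraries had PLAT, PLAU, SERPINE2 and PLAUR, and control libraries had PLAU, PLAT, SERPINE2 and PLAUR. Within each group, neighbours in this order did not overlap between libraries. The order also depends on the gene lengths used for FPKM, which are not stated. PLAUR has 4457 exonic bases but 1610 in its longest transcript, and SERPINE2 has 8891 and 5989. The activator mRNAs exceeded the receptor and protease nexin-1 mRNAs in all 6 libraries: PLAU was 6.74 to 6.85 times SERPINE2 in KO and 10.6 to 12.5 times in control, and PLAT was 9.83 to 10.9 times SERPINE2 in KO and 6.84 to 9.21 times in control.

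**Figure D2:**
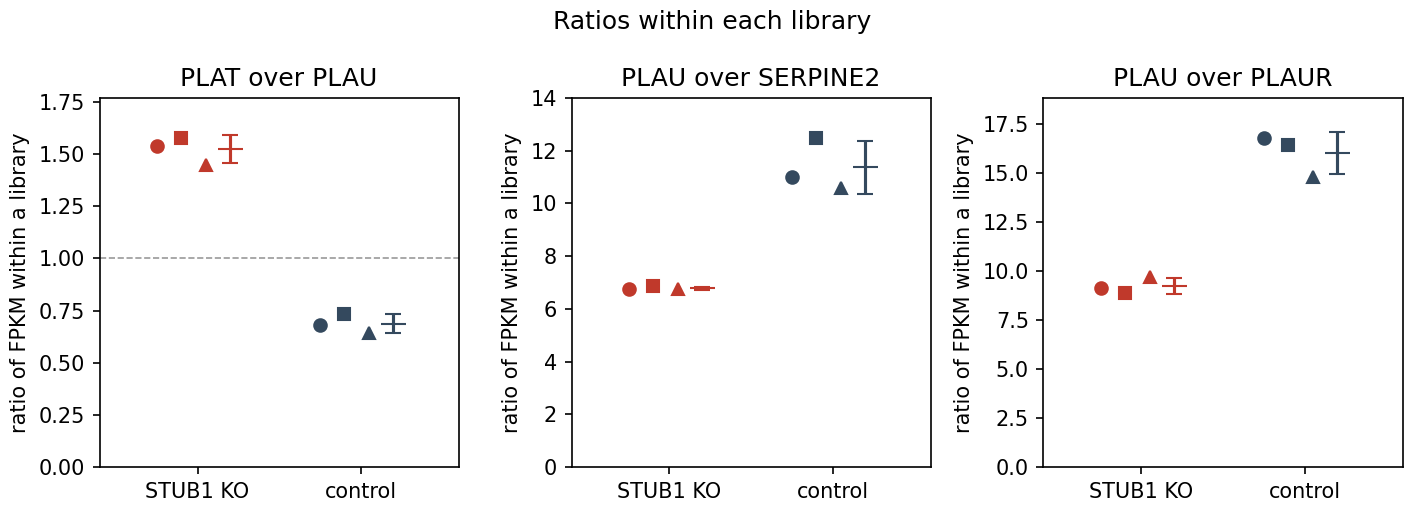
Ratios of FPKM within each library (vertical axes, linear, from 0) for PLAT over PLAU, PLAU over SERPINE2 and PLAU over PLAUR, with STUB1 KO (red) left and control (dark) right; symbols are libraries 1, 2 and 3 and bars are the mean and SD. The dashed line marks a ratio of 1, which separates the groups for PLAT over PLAU (1.45 to 1.58 in KO, 0.644 to 0.735 in control), and PLAU over SERPINE2 is 6.74 to 6.85 in KO and 10.6 to 12.5 in control.

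Among other genes of the system, the inhibitor gene for PAI-2 fell and the clearance receptor gene LRP1 rose. Of 27 such genes in the table, 17 were tested, of which 2 rose, 2 fell and 13 did not pass. That is 23.5% called, close to the 22.9% of all tested genes, with a median log2 fold change of 0.02 against -0.01 over all tested genes. After a correction for GC content and transcript length, 8 of the 17 were called, beside 3242 of all 11177 genes. With array weights it was also 8, beside 5798 of 11262. The set held serpins, activators of other classes, plasminogen-binding proteins and clearance receptors.

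SERPINB2, which encodes PAI-2, an inhibitor of urokinase that is largely kept inside cells, measured 45.5, 41.4 and 45.0 FPKM in KO, against 74.2, 76.0 and 73.9 FPKM in control. SERPINB2 fell to 58.9% of control, with no overlap between the groups (log2 fold change -0.75, SE 0.0700; limma, Benjamini-Hochberg adjusted p = 0.000259). Across 14 alternatives its log2 fold change was -0.80 to -0.54. The value of -0.54 was that after the GC and length correction (limma, Benjamini-Hochberg adjusted p = 0.00137).

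SERPINF2, which encodes the plasmin inhibitor alpha-2-antiplasmin, was near the filter, at 1.59 ± 0.0486 FPKM in KO and 2.44 ± 0.499 FPKM in control (SD, n = 3 each). It fell (log2 fold change -0.40; limma, Benjamini-Hochberg adjusted p = 0.0204), but did not pass when KO 1, KO 2 or KO 3 was left out (adjusted p at least 0.0595). SERPINB6, SERPINB8 and SERPINE3 did not pass, with log2 fold changes of 0.12, 0.14 and 0.13. SERPINB6 passed without control 3 (0.19, adjusted p = 0.0245) and with library weights (0.19, adjusted p = 0.00342). SERPINB8 passed after a correction for GC content and transcript length (0.24, adjusted p = 0.00731).

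LRP1, the endocytic receptor for complexes of activator, receptor and serpin, measured 8.54, 9.28 and 8.16 FPKM in KO, against 4.21, 5.26 and 2.70 FPKM in control. Control 3 was the lowest library, and all KO values were above all control values. LRP1 rose to 213% of control (log2 fold change 0.96, SE 0.164; limma, Benjamini-Hochberg adjusted p = 0.00405), which was the 23rd highest value among the tested genes. Without control 3 its log2 fold change was 0.76, and after the GC and length correction 0.69. The other clearance genes did not pass. LRPAP1, whose product chaperones LRP1, and the related receptors LRP8 and SORL1 had log2 fold changes of -0.0042, 0.0021 and 0.16. IGF2R, a receptor that also binds the urokinase receptor, had -0.29 (limma, Benjamini-Hochberg adjusted p = 0.211). IGF2R passed as lower without control 3 (-0.50, adjusted p = 6.16e-05), with library weights (-0.47, adjusted p = 9.71e-06) and after the GC and length correction (-0.43, adjusted p = 0.0129).

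Genes for plasminogen-binding proteins did not pass, and 3 of them, ANXA2, S100A10 and ENO1, had higher FPKM than either activator gene in both groups. ANXA2 and S100A10, which form a complex that holds plasminogen at the cell surface, averaged 537 and 439 FPKM in KO and 548 and 361 FPKM in control. ENO1, a glycolytic enzyme that also binds plasminogen, averaged 906 FPKM in KO and 896 FPKM in control. S100A10 had a log2 fold change of 0.29 (limma, Benjamini-Hochberg adjusted p = 0.102). It passed without control 3 (0.43, adjusted p = 2.34e-05), with library weights (0.43, adjusted p = 1.88e-06), with mitochondrial genes left out of the scaling (0.34, adjusted p = 0.0235) and after the GC and length correction (0.29, adjusted p = 0.0357). PLGRKT, a plasminogen receptor of the plasma membrane, averaged 9.74 FPKM in KO and 11.4 FPKM in control, with a log2 fold change of -0.20 (limma, Benjamini-Hochberg adjusted p = 0.153), and 0.02 after that correction. Of the other proteases, ST14 (matriptase, which can activate pro-urokinase) and F12 (coagulation factor XII) had log2 fold changes of -0.06 and 0.23 and did not pass. F12 passed without control 3 (0.37, adjusted p = 0.00659) and with library weights (0.29, adjusted p = 0.00216). ST14 passed as lower after the GC and length correction (-0.25, adjusted p = 0.0141). PLG, which encodes plasminogen, and HPN were listed at 0 in all 6 libraries, and VTN, LRP2, CPB2, KLKB1, SERPINA5, SERPINI1, VLDLR and MRC2 were below the filter.

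**Figure D3:**
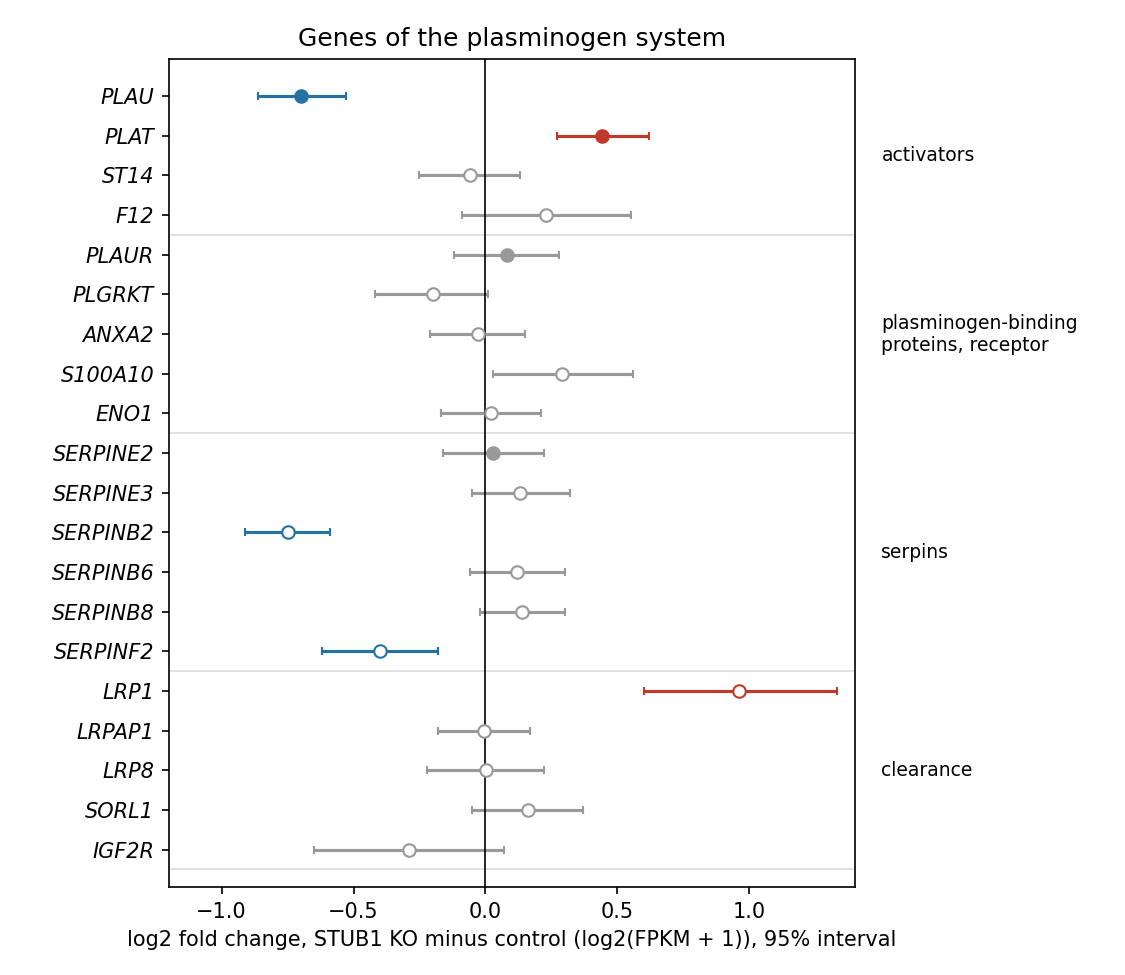
Log2 fold change, STUB1 KO minus control, on the log2(FPKM + 1) scale (horizontal axis) with its 95% interval for the 4 members (filled) and other tested genes of the plasminogen system (open), grouped by role; red passed as higher, blue as lower and grey did not pass (limma, adjusted p of 0.05). PLAU (-0.70) and PLAT (0.44) stand on opposite sides of 0, SERPINB2 (-0.75) lies lowest and LRP1 (0.96) highest of the genes shown.

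Among genes for proteins that plasmin or urokinase signalling acts on, 8 of 13 tested rose, a count that depended on the libraries used. Of 23 genes of matrix proteins, matrix proteases and latent growth factor carriers, 13 passed the filter, of which 2 others were lower and 3 did not pass the test, or 76.9% called beside 22.9% of all tested genes. The median log2 fold change was 0.35. FN1, which encodes fibronectin, rose to 128 ± 7.79 FPKM in KO, against 37.0 ± 8.82 FPKM in control (log2 fold change 1.79). LTBP1, which binds latent TGF-beta, averaged 3.51 FPKM in KO and 2.04 FPKM in control (0.57), and MMP14, a membrane matrix protease, averaged 55.9 FPKM in KO and 41.6 FPKM in control (0.42, and 0.26 after the GC and length correction). Adjusted p for these 3 genes was at most 0.00532 (limma, Benjamini-Hochberg). The genes counted as lower were the collagenase gene MMP1 and, named after its values were seen, the stromelysin gene MMP10. Both passed the filter only through the control libraries, so these calls are no support: MMP1 averaged 0.538 ± 0.0600 FPKM in KO and 1.59 ± 0.245 FPKM in control, and MMP10 averaged 0.830 ± 0.240 FPKM in KO, which was 52.0% of control. MMP1 was below the filter without control 1 or control 3. With 1 library left out, 3 genes were higher and 2 lower without KO 1 or KO 3, and 3 and 1 of 12 tested without control 1. Without KO 2 it was 4 and 1, and without control 2 it was 9 and 2. The medians were 0.32 to 0.41. Over all tested genes, 521 of 11265, 452 of 11263 and 579 of 11264 were higher without KO 1, KO 3 and control 1. Without KO 2 it was 386 of 11262 and without control 2 it was 1359 of 11263, against 1079 of 11262 with all libraries. Without control 3, 9 were higher and 1 lower of 12 tested, beside 4527 of all 11275 genes called, and the median was 0.26. As TPM, with mitochondrial genes left out of the scaling or without a filter, 5 were higher. Called over all tested genes were then 2289 of 11262, 1988 of 11249 and 2562 of 16782. Correcting for GC content and length left 7 higher and 2 lower, beside 3242 of all 11177 genes called, with a median of 0.20. The list was drawn up with some of its members' changes known, so its counts are no independent evidence of direction.

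The urokinase receptor has no cytoplasmic part of its own and signals through partner proteins. Of 17 partner genes, such as integrins, EGFR and caveolin, 10 were tested, 1 rose and 9 did not pass, so 1 of 10 was called beside 22.9% of all tested genes. With the replicate number as a block 2 were higher, with array weights 3 were higher and 2 lower, and as TPM 0 were higher and 1 lower. Under these settings 3051, 5798 and 2289 of all 11262 genes were called. EGFR averaged 68.4 FPKM in KO and 54.2 FPKM in control, and CAV1 averaged 213 FPKM in KO and 249 FPKM in control. Neither gene overlapped between the groups or passed the test (log2 fold changes 0.34 and -0.22; limma, Benjamini-Hochberg adjusted p = 0.0583 and 0.0553), and both were named after their values were seen. ITGB5, an integrin beta chain, averaged 22.4 FPKM in KO and 18.6 FPKM in control (log2 fold change 0.26; limma, Benjamini-Hochberg adjusted p = 0.0335). That call was lost without KO 1, KO 2, KO 3 or control 1 (adjusted p = 0.0913, 0.108, 0.120 and 0.0944) and as TPM (0.109). With the GC and length correction and the block it was also lost (0.0970). After the GC and length correction its value was 0.13. The list then had 3 higher and 2 lower, beside 3242 of all 11177 genes called. In the family of proteins that share the receptor's three-finger domain, 6 of 22 were tested and 2 rose, or 33.3% called beside 22.9% of all tested genes. LYPD1 averaged 6.14 FPKM in KO and 2.72 FPKM in control (log2 fold change 0.94; limma, Benjamini-Hochberg adjusted p = 8.15e-05), and LY6K averaged 8.52 FPKM in KO and 6.17 FPKM in control (0.41, adjusted p = 0.00484). PLAUR itself, in the same family, did not pass, and the difference between it and LYPD1 was not tested.

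Protease nexin-1 is also an inhibitor of thrombin. Of 15 genes of thrombin signalling and coagulation control, 6 were tested, 1 rose, 2 fell and 3 did not pass, so 3 of 6 were called beside 22.9% of all tested genes. F3, which encodes tissue factor, averaged 259 ± 17.3 FPKM in KO and 202 ± 6.32 FPKM in control (log2 fold change 0.35; limma, Benjamini-Hochberg adjusted p = 0.0140). It did not pass when KO 1, KO 3 or control 1 was left out (adjusted p = 0.0611, 0.0915 and 0.0572). TFPI2, a Kunitz inhibitor of plasmin and of tissue factor complexes, fell to 71.5% of control (-0.48, and -0.27 after the GC and length correction), and PROCR, the protein C receptor, to 70.3% (-0.49), with adjusted p = 0.00716 and 0.00244 (limma, Benjamini-Hochberg). With array weights 3 genes of this list were higher and 3 lower, beside 5798 of all 11262 genes called.

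PLAU is known as a target of AP-1, ETS, NF-kB and Sp1 factors. Of 21 genes for such factors, all were tested, 2 rose, 2 fell and 17 did not pass, or 19.0% called, near the 22.9% of all tested genes. With the replicate number as a block 4 were higher and 2 lower, beside 3051 of all 11262 genes called. FOSB and JUN, AP-1 subunits, averaged 23.5 and 42.1 FPKM in KO and 11.8 and 31.2 FPKM in control (log2 fold changes 0.91 and 0.42; limma, Benjamini-Hochberg adjusted p = 0.00783 and 0.00796). FOSB was highest in KO 3 (31.6 FPKM) and lowest in control 1 (9.92 FPKM). The ETS factors ETV4 and ETV5 fell to 70.5% and 84.3% of control (-0.48 and -0.22; limma, Benjamini-Hochberg adjusted p = 0.00196 and 0.0447). The ETV5 call was lost with the replicate number as a block (adjusted p = 0.0571), as TPM (0.0552), with mitochondrial genes left out of the scaling (0.162), without any 1 of the KO libraries (0.113, 0.113 and 0.168) and without control 1 or control 2 (0.0992 and 0.125). Correcting for GC content and length gave 4 higher and 5 lower factors, beside 3242 of all 11177 genes called. Adding the block gave 6 and 4, beside 3042 of 11177. Array weights without the correction gave 6 and 4, beside 5798 of 11262. Without control 3, 5 were higher and 3 lower, beside 4527 of all 11275 genes called.

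**Figure D4:**
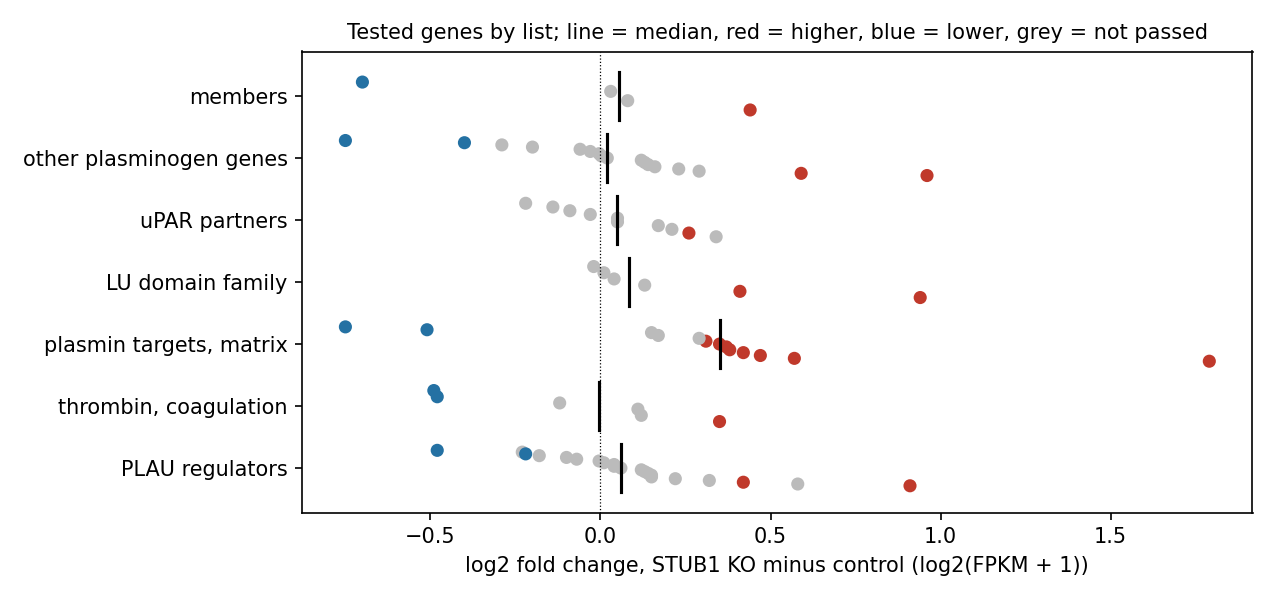
Log2 fold change, STUB1 KO minus control, on the log2(FPKM + 1) scale (horizontal axis) of each tested gene of the 4 members and of 6 lists of related genes (rows); the black line is the list's median, and red, blue and grey points passed as higher, passed as lower or did not pass (limma, adjusted p of 0.05). The list of plasmin targets and matrix genes has a median of 0.35, while the other 5 lists have medians of at most 0.08.

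The values of neighbouring genes show how each member stood in its part of the genome; over all tested genes, 9.58% were higher and 13.3% lower. Within 2 Mb of PLAU, 33 other genes were tested, of which 0 rose and 1 fell (limma, adjusted p of 0.05), with a median log2 fold change of 0.05. PLAU was lower than all of them. Within the same distance of PLAT, 2 of 18 tested genes rose and 0 fell, the median was 0.08, and 16 of the 18 lay below PLAT. Around PLAUR, 9 of 68 rose and 1 fell, with a median of 0.07, and around SERPINE2, 0 of 7 rose and 1 fell, with a median of -0.18.

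Likeness was measured by Pearson's r of log2(FPKM + 1) over the 6 libraries, among 5317 protein-coding genes with a mean of at least 10 FPKM. The genes most like PLAU were GSR, PEX3 and EME1 (r of 0.998, 0.998 and 0.997), and C1R and MKNK2 were among those most like PLAT (0.997 and 0.996). For these members the groups do not overlap, so r mostly restates the group difference: 294 genes reached an r of 0.95 with PLAU and 164 with PLAT. All 5 genes passed in the same direction as their member, with log2 fold changes of -0.41, -0.86 and -0.60 for GSR, PEX3 and EME1 and of 0.66 and 0.45 for C1R and MKNK2 (limma, Benjamini-Hochberg adjusted p at most 0.00509). After the GC and length correction PEX3 was at -0.54 and MKNK2 at 0.25. The genes most like PLAUR were TADA3, VASP and PDLIM1 (r of 0.997, 0.986 and 0.982), and those most like SERPINE2 were YWHAH, LAPTM4A and EEF1G (0.988, 0.986 and 0.982). None of these 6 genes passed, and their log2 fold changes were 0.01 to 0.09. TADA3 passed without control 3 (0.20, adjusted p = 0.0353) and with library weights (0.18, adjusted p = 0.0112). LAPTM4A passed after the GC and length correction (0.19, adjusted p = 0.00850) and with library weights (0.12, adjusted p = 0.0373). For PLAUR and SERPINE2, only 55 and 19 genes reached an r of 0.95.

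The directions of PLAU and PLAT did not depend on the processing choices that were tried. Across 14 alternatives the log2 fold change of PLAU was -0.75 to -0.63 and that of PLAT 0.40 to 0.50, and both passed each time (limma, Benjamini-Hochberg adjusted p at most 0.00769 and 0.0318). Mitochondrially encoded genes took 26.2% to 30.8% of the FPKM sum in KO and 20.9% to 26.8% in control libraries; with these genes left out of the scaling, PLAU was at -0.65 and PLAT at 0.49.

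**Figure D5:**
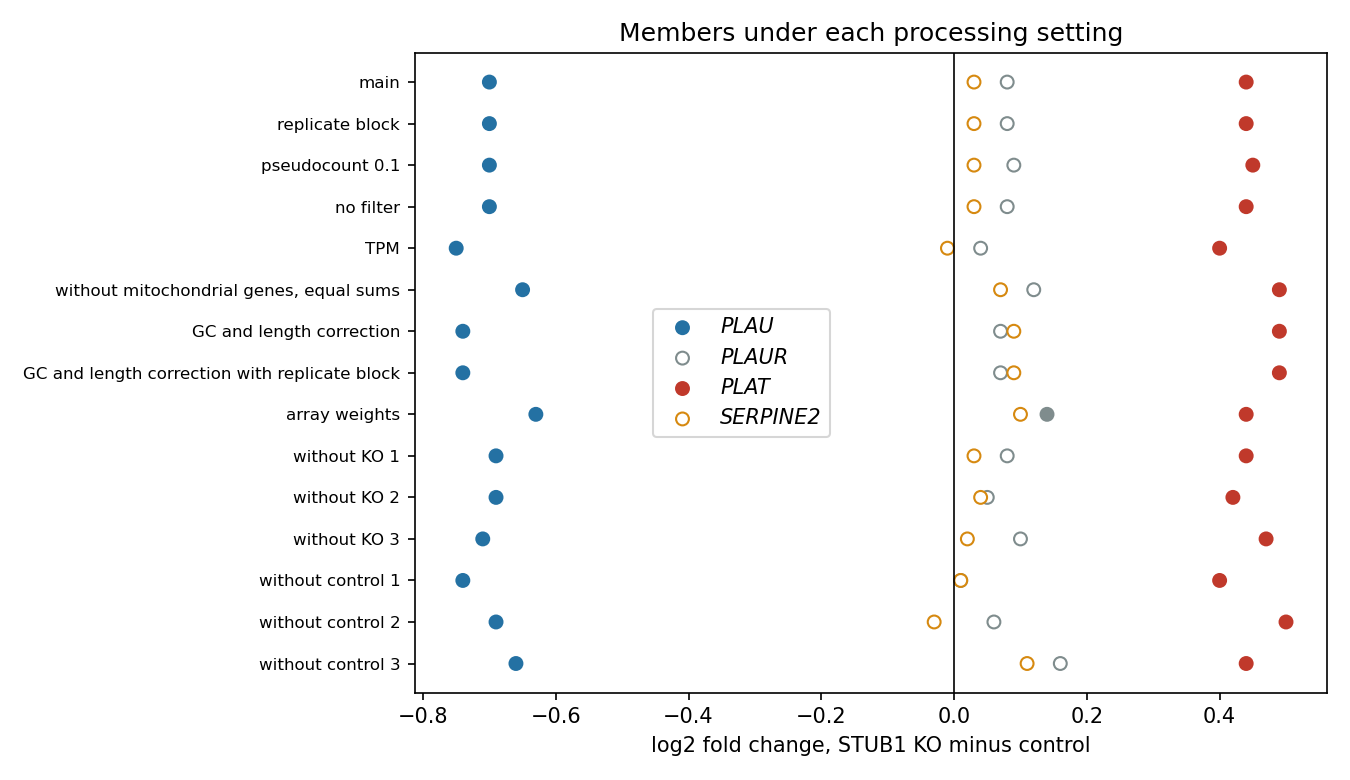
Log2 fold change, STUB1 KO minus control (horizontal axis), of PLAU, PLAUR, PLAT and SERPINE2 under the settings in the rows, with the value as reported on top; filled points passed an adjusted p of 0.05 and open points did not. PLAU stays between -0.75 and -0.63 and PLAT between 0.40 and 0.50, PLAUR passes with array weights alone, and SERPINE2 lies on both sides of 0.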

How the data were processed

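The authors deposited 1 table of FPKM values, rounded to 3 decimals, for 20014 Ensembl genes in 6 libraries of poly(A)-selected RNA made with an Illumina TruSeq RNA kit, per the labels' protocols. The build GRCh38.p13 and the tools HISAT2 2.0.5, Trimmomatic 0.36, Cufflinks (no version), featureCounts 1.6.3 and edgeR 3.6.3 are listed in the submitters' processing notes, with neither role nor order. Not given in the sources used here are the annotation release, the strand setting and any scaling between libraries. Column sums were 410756 to 447332.

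FPKM are not counts, so no count test was run. For low values of genes of 300 to 2000 exonic bases, only 58.1% to 63.1% came within 0.15 of whole reads at the best library size, so reads were not recovered and no counting interval is given. Symbols came from a table of identifiers for 19991 genes and from GENCODE 29 for 23; GENCODE 29 (GRCh38) also gave coordinates, length and GC content.

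Values were log2(FPKM + 1) for genes with a mean of at least 1 FPKM. The STUB1 KO and control libraries were compared with limma 3.58.1 (R 4.3.3), using a variance prior with a trend. The p-values were adjusted by Benjamini-Hochberg over 11262 genes. Fold changes on this scale understate those of low genes. Tables and plots used matplotlib 3.10.9, scipy 1.17.1, pandas 2.3.3 and numpy 2.4.6 under Python 3.11.15.

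Groups share replicate numbers. Libraries with the same number deviated together from their group means (correlation over genes 0.375, 0.150 and 0.188, all above the 0.1 taken to mark pairs), although no label states a shared batch; the reported fit has no block, and the block is among the alternatives. Alternatives were the replicate number as a block, a pseudocount of 0.1, no filter, TPM, scaling without mitochondrial genes, a per-library spline correction for GC content and length (11177 genes) alone and with the block, array weights, and leaving out each library. The members and lists were chosen with earlier results of these data known. The text names the 4 members and STUB1, all tested genes of the plasminogen list, up to 4 genes past the threshold with the smallest p from each other list, and the 3 genes most like each member. Other names were chosen after their values were seen. Results of 2 of the genes that this rule names are not reported here; they remain in the counts.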

Additional observations from a re-analysis of the deposited data

How the results depend on the processing

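PLAU and PLAT kept their direction and passed under all 14 alternatives; leaving out 1 library gave -0.74 to -0.66 for PLAU and 0.40 to 0.50 for PLAT. PLAUR stayed above 0 (0.01 to 0.16 with 1 library left out) and passed with array weights (0.14). SERPINE2 did not pass under any alternative; it turned to -0.01 as TPM and ranged from -0.03 (without control 2) to 0.11 with 1 library left out. Among the 4 members and the 44 other genes named by the rule above, the replicate block changed no call except that of ETV5. With it 1368 genes were higher and 1683 lower over the whole table, against 1079 and 1500. Genes called over the whole table numbered 2579, and 1034 (without KO 2) to 4527 (without control 3) with 1 library left out, with 1424, 1183 and 1504 without KO 1, KO 3 and control 1; array weights gave 5798. As TPM the median of all genes was -0.052 and higher genes made up 29.1% of calls, against 41.8%. Of the 17 other plasminogen genes tested, 4 were called, but 8 after the GC and length correction (block or not), with array weights, or without control 3. Over all tested genes, 3242 of 11177 were called after that correction and 3042 of 11177 with the block added. With array weights it was 5798 of 11262, and without control 3 it was 4527 of 11275. With 1 library left out 3 to 8 of the 17 were called. Without a filter 6 of 25 were called, beside 2562 of all 16782 genes. Of 614 values of the 44 other named genes under alternatives, 534 kept direction and side of the threshold, 20 lost the call, 22 gained it and 38 changed sign. The sign changes were all of genes that did not pass, and their cause was not tested. After the GC and length correction, with or without the block, values were 0.04 for ANXA2, 0.02 for PLGRKT, -0.0020 for ENO1, -0.07 for LRP8, -0.01 for VASP and -0.01 for EEF1G. As TPM they were -0.03 for ENO1, -0.04 for LRP8, -0.0040 for PDLIM1, -0.02 for YWHAH, -0.01 for LAPTM4A and -0.03 for EEF1G. Without mitochondrial genes ANXA2 was at 0.02 and LRPAP1 at 0.04, and with array weights ANXA2 at 0.02, LRPAP1 at 0.02 and LRP8 at -0.07. With 1 library left out the ranges were -0.06 to 0.01 for ANXA2, -0.02 to 0.04 for ENO1 (-0.0013 without control 1), -0.04 to 0.03 for LRPAP1 (0.03 without KO 1, 0.0020 without KO 3), -0.10 to 0.08 for LRP8 (-0.0041 without KO 1, -0.0045 without KO 3), -0.01 to 0.20 for TADA3, -0.01 to 0.10 for PDLIM1, -0.04 to 0.10 for YWHAH, -0.01 to 0.11 for LAPTM4A and -0.03 to 0.06 for EEF1G (-0.0011 without control 1). Without a file of read counts, the precision of genes near 1 FPKM, such as SERPINF2, MMP1 and MMP10, cannot be given.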

Other observations

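Several genes of the system lay below the filter of 1 FPKM and were not tested in the comparison as reported. SERPINI1, which encodes neuroserpin, an inhibitor of the tissue-type activator, averaged 0.280 ± 0.0557 FPKM in KO and 0.740 ± 0.206 FPKM in control (SD, n = 3 each), with no overlap between the groups. MMP13, a collagenase that plasmin can activate, averaged 0.224 ± 0.0754 FPKM in KO and 0.830 ± 0.0909 FPKM in control, also without overlap. SERPINA5, the protein C inhibitor, averaged 0.189 ± 0.0404 FPKM in KO and 0.109 ± 0.00907 FPKM in control. These 3 genes were chosen after their values were seen.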
